A study of Mus musculus with 45 samples.

Results

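The 10 genes described here are markers of Kupffer cells, the resident macrophages of the liver, and of macrophages in general: Clec4f, Vsig4, Timd4, Adgre1, Marco, Cd5l, C1qa, C1qb, C1qc and Cd68. The choice was made with earlier results of these data known. The genes were taken by name, as the entries of the deposited expression table with these symbols, and by no rule on their measured values. They are 10 of 24946 usable genes, and all 10 were among the 11244 genes that averaged at least 0.5 TPM, a length-normalised share of the transcripts of a library, and were tested. Whole liver lysates of wild-type (WT) mice were sequenced in bulk, giving 45 libraries. Per the labels, which are checked below, livers labelled ethanol came from mice given the Lieber-DeCarli ethanol liquid diet for 6 wk. They were taken at the end of that feeding (peak injury, 4 female-labelled and 4 male-labelled libraries), after 3 days back on the control diet (early resolution, 3 and 4) or after 2 wk back on it (late resolution, 3 and 3). Each stage has its own livers labelled control diet, with 4 female-labelled and 4 male-labelled libraries. The labels give neither a strain, an age nor a statement that replicates are separate animals, and each p-value therefore rests on the spread of these libraries, which may in part be technical.

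Kupffer cells line the liver sinusoids, where they take up particles, bacteria, dying cells and aged red cells from portal blood, and in alcohol-associated liver injury they are a source of inflammatory cytokines and also of signals that end inflammation. Clec4f, a C-type lectin receptor, and Vsig4, a receptor for complement C3 fragments, are in the mouse liver largely limited to Kupffer cells. Timd4, a receptor for phosphatidylserine on dying cells, marks long-established Kupffer cells, and Adgre1 encodes the F4/80 surface antigen of most mouse macrophages. Marco is a scavenger receptor for bacteria and particles, and Cd5l encodes a secreted apoptosis inhibitor of macrophages. C1qa, C1qb and C1qc encode the chains of C1q, which starts the classical complement pathway, and Cd68 encodes a lysosomal glycoprotein of all macrophages.

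The 10 genes lie on 7 chromosomes, all as protein-coding genes of the GENCODE M21 annotation of the mm10 build. The C1q genes stand side by side on the minus strand at chr4:136880129-136898803, within 18.7 kb. Promoter sequence was at hand in RefSeq (GRCm38.p6) for 8 of the 10, the exceptions being C1qa and Adgre1. To let the shared letters be seen, the 250 bases upstream of the start are printed for 4 genes whose windows lie outside the annotated span of the gene itself: Vsig4 (chrX:96293439-96293688, minus strand), C1qb (chr4:136886201-136886450, minus strand), Cd5l (chr3:87357631-87357880, plus strand) and Marco (chr1:120505025-120505274, minus strand), each written 5′ to 3′ on the strand of its gene. Capitals mark, on either strand, GAGGAA or GGAAGT, which are core letters bound by the macrophage factor PU.1 and other ETS proteins, and TGCTGA, the half-site of MAF proteins.
Vsig4: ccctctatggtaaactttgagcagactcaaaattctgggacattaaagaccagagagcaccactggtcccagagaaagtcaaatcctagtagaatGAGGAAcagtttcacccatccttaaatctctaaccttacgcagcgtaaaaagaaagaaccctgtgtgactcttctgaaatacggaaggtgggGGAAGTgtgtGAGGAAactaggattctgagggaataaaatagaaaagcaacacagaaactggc
C1qb: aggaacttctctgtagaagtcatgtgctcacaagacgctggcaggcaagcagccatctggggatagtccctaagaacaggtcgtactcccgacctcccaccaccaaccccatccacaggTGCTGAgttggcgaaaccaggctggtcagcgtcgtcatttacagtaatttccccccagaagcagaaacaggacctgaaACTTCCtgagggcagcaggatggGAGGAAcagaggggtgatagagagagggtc
Cd5l: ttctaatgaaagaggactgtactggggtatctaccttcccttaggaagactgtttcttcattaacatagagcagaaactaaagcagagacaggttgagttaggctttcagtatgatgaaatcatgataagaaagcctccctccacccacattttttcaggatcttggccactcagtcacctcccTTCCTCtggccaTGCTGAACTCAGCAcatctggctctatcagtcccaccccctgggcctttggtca
Marco: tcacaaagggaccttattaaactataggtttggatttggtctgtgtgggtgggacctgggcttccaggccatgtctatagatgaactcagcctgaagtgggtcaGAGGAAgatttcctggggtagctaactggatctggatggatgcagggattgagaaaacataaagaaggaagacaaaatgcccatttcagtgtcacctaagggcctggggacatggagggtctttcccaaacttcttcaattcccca
At least 1 of GAGGAA and GGAAGT was found in 8 of 8 marker promoters, against 36.7% of the 32851 promoters searched. GAGGAA alone was found in 6 of 8, against 23.3% of all promoters, GGAAGT in 5 of 8, against 19.7%, and TGCTGA in 4 of 8, against 16.1%. The palindrome TGCTGANNTCAGCA, which holds TGCTGA on both strands, was found in 2 of all 32851 promoters (0.00609%), counting that of Cd5l itself. GAGGAA and GGAAGT can overlap, as they do in the C1qc promoter. The motifs were chosen with these sequences in view, so these shares are not a test. A match describes the letters only.

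The labels needed a check before the markers were compared. The X-inactivation transcript Xist and the Y-linked transcript Eif2s3y went against the sex label in 22 of 45 libraries, 11 control-labelled females and 11 ethanol-labelled males. By these transcripts all 21 ethanol-labelled libraries read as female and 23 of 24 control-labelled libraries as male. The diet label and the sex read from transcripts therefore cannot be told apart, in any of the diet comparisons below. Within each diet label, male-labelled and female-labelled libraries read as the same sex, but for the library labelled late control female 1. The sex-label comparisons below therefore compare labels, and not the sex read from transcripts. Groups are named by their labels throughout, and whether the diet labels hold for each library was not tested. A diet difference or diet effect below means ethanol-labelled minus control-labelled livers, and names no cause. The exception among the controls, the late-resolution library labelled control female 1, had 39.5 TPM of Xist and was listed at 0 for Eif2s3y, as in the ethanol-labelled libraries. It also had the highest value of all 45 libraries for 8 of the 10 markers, so the counts of called markers and list genes at late resolution are also given without it.

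Clec4f was the most abundant marker, with 105 ± 38.1 TPM (SD over 45 libraries), followed by Cd5l with 93.0 ± 37.1 TPM. C1qb averaged 45.6 ± 16.9 TPM, Vsig4 39.1 ± 16.2 TPM, C1qa 34.2 ± 12.9 TPM and C1qc 21.5 ± 8.31 TPM. Cd68, the general macrophage marker, averaged 19.1 ± 7.75 TPM. Marco with 9.08 ± 5.86 TPM, Adgre1 with 7.88 ± 3.91 TPM and Timd4 with 4.17 ± 1.49 TPM were the lowest. By mean TPM, which is per length, these levels ran from rank 935 for Clec4f to rank 6661 for Timd4 among the 11244 genes. Every marker was above 0 in every library. The highest library exceeded the lowest 4.36-fold for Clec4f and 15.8-fold for Marco, the widest spread of the 10.

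**Figure D1:**
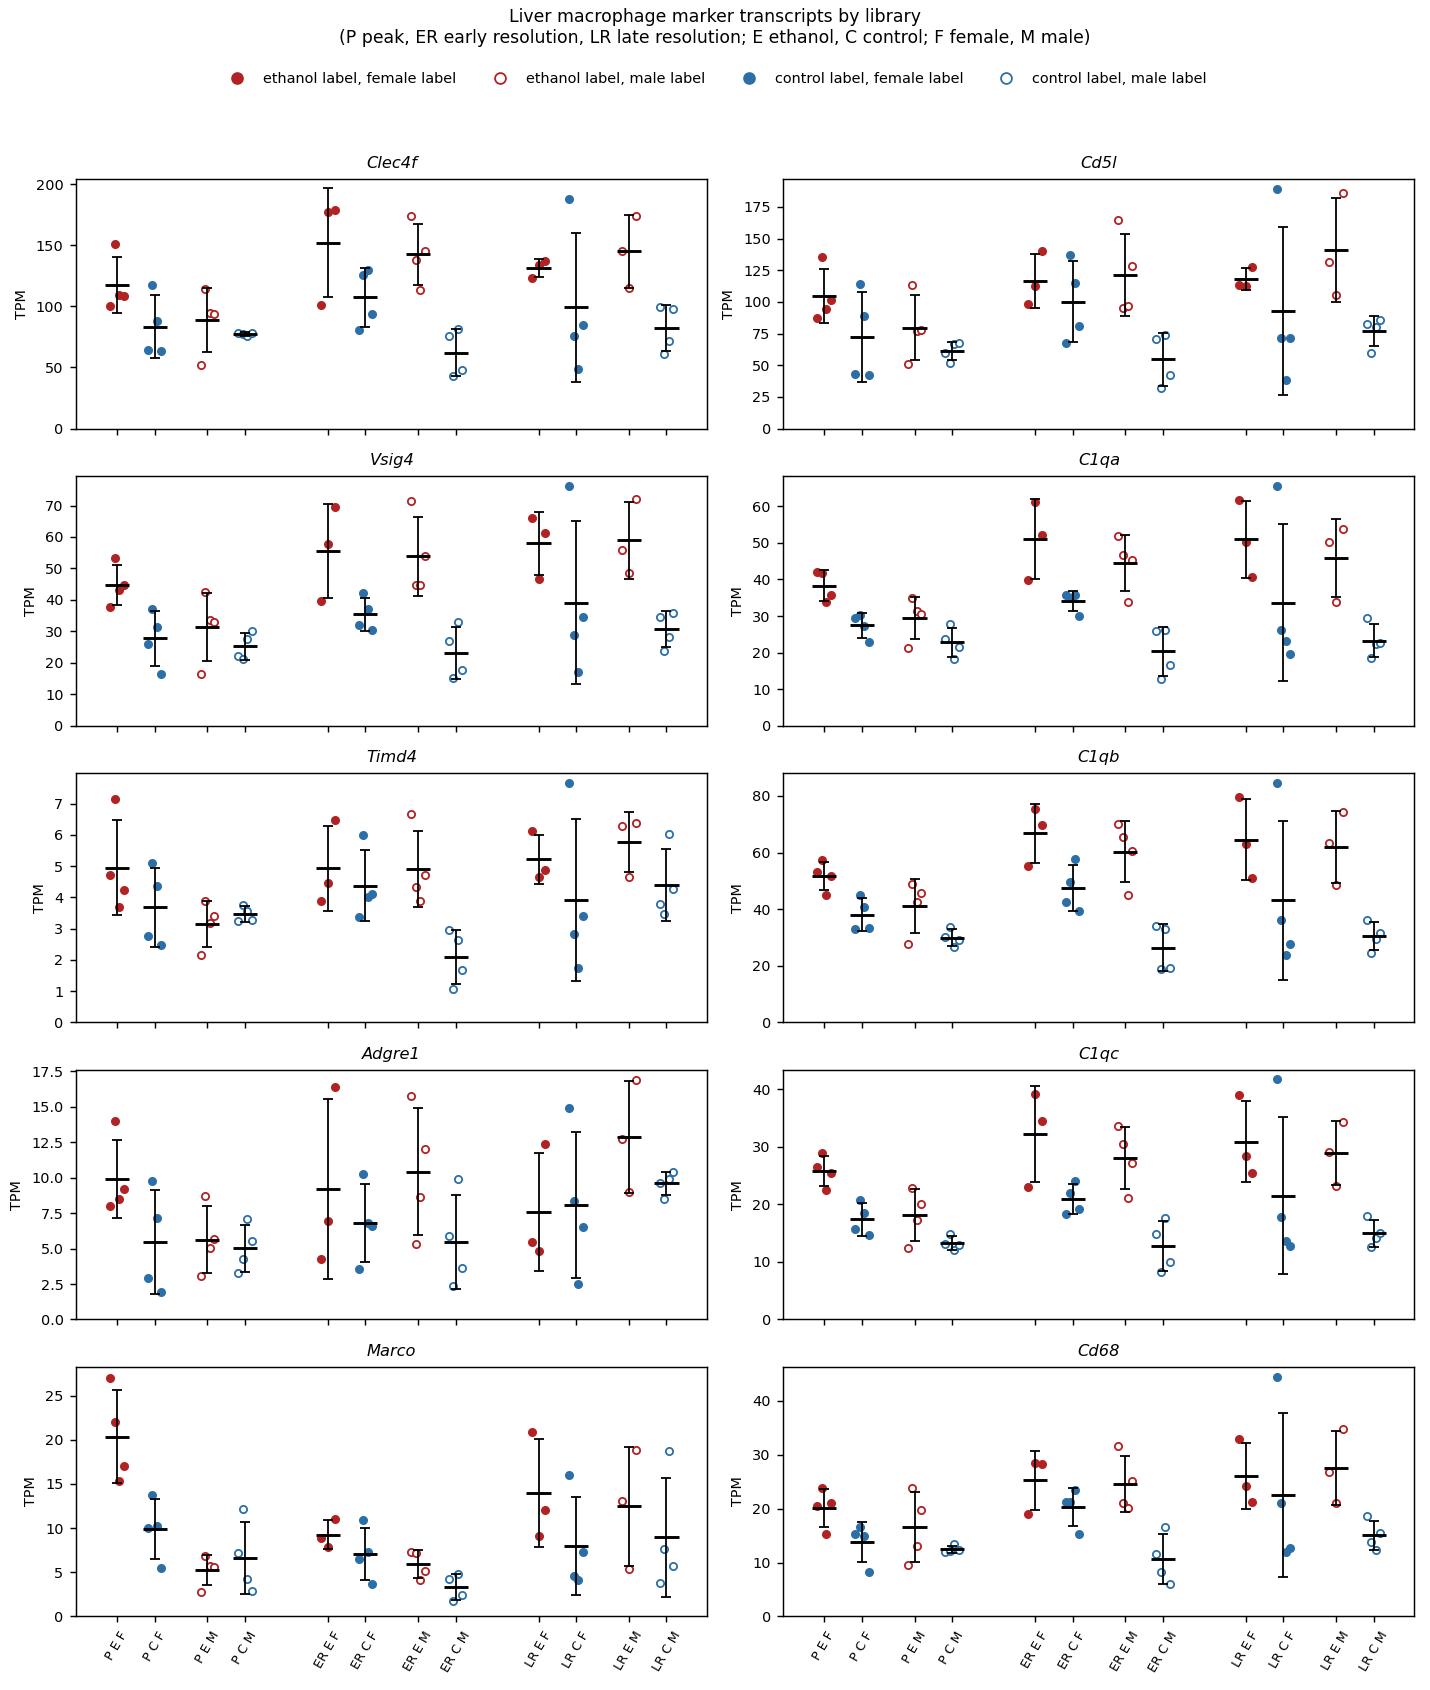
TPM of each marker (vertical axis, linear, from 0) in the 45 libraries, by group on the horizontal axis; points are libraries, bars the group mean and whiskers the SD. Ethanol-labelled groups stand left of their controls, and the single control point above 180 TPM of Clec4f at late resolution is control female 1.

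Over the 12 groups, the lowest mean was in early-resolution control males for 9 markers and, for Adgre1, in peak control males. The highest was in early-resolution ethanol females for Clec4f, C1qa, C1qb and C1qc, in late-resolution ethanol males for Vsig4, Cd5l, Timd4, Adgre1 and Cd68, and in peak ethanol females for Marco. Clec4f thus averaged 152 ± 44.3 TPM (SD, n = 3) in its highest group and 62.0 ± 19.2 TPM (n = 4) in its lowest. Of the 11 gaps between neighbours in that order, none exceeded the larger SD of the pair for Clec4f, Vsig4, C1qc, Cd5l, Adgre1 and Cd68, and 1 did for C1qa, C1qb and Timd4 and 2 for Marco, so most neighbours did not differ beyond their spread.

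The first question was whether the markers differed between ethanol-labelled and control-labelled livers at peak injury. All 10 were higher on average in ethanol-labelled livers, by a median of 0.44 on the log2(TPM + 0.5) scale against 0.05 for all genes tested, but 1 of 10, C1qc, passed the test. Of all genes tested, 17.3% were called higher in that comparison, so 1 of 10 is no more than the background. After median-of-ratios scaling, which sets the typical gene to the same level in every library, C1qc was again the 1 called, against 15% of all genes. The C1q chains illustrate the spread. C1qc had 26.5, 28.9, 22.6 and 25.5 TPM in the ethanol females and 12.4, 22.9, 17.4 and 20.1 TPM in the ethanol males, against 15.6, 20.9, 18.6 and 14.6 TPM in the control females and 13.1, 14.9, 12.1 and 12.95 TPM in the control males. The female-labelled groups did not overlap, while the lowest ethanol male lay among the controls. C1qc rose by 0.49 ± 0.17 (log2 difference ± SE; limma, adjusted p = 0.035). Its partner chains C1qa (0.42 ± 0.17, adjusted p = 0.070) and C1qb (0.44 ± 0.18, adjusted p = 0.061) had nearly the same difference by limma and did not pass. Timd4 had the smallest difference, 0.13 ± 0.19 (limma, adjusted p = 0.66), and Adgre1 the largest, 0.56 ± 0.32 (limma, adjusted p = 0.19). The C1qc call was lost (limma, adjusted p of up to 0.079) when 1 of these libraries was left out: ethanol female 1 or 2, ethanol male 2 or 4, control female 1 or 4, or control male 1 or 3. Without ethanol male 1, or without late control female 1, which adds to the spread shared by all groups, 4 markers were called (18% of all genes called higher without late control female 1), and 2 without control female 2 or late control female 3. For the fits without the other libraries no share of all genes is given, so their counts have no background.

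Within the sex labels at peak, the median marker difference was 0.28 in males and 0.56 in females as deposited, and 0.31 in males and 0.36 in females after median-of-ratios scaling. In female-labelled libraries 5 of 10 markers, Vsig4, C1qa, C1qb, C1qc and Marco, had every ethanol library above every control library, against 10.4% of all genes tested. C1qb did so narrowly, with 45.1 TPM both in its lowest ethanol female and in its highest control female. In male-labelled libraries no marker was separated in that way, where 11.7% of all genes were. Within females limma called 0 of 10 (4 at an unadjusted p under 0.05, 0 after median-of-ratios scaling), against 5.03% of all genes called higher as deposited and 3.15% after scaling. Within males it called 0 of 10 (0 and 0), against 10.7% and 14.6%. The difference between the labels' diet effects was not called for any marker by limma either (0 of 10, 0 at an unadjusted p under 0.05, 0 after scaling), where 0.16% of all genes were called as deposited and 0.427% after scaling.

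At early resolution, 3 days after the return to the control diet, 8 of 10 markers were called higher in ethanol-labelled than in control-labelled livers, against 14.3% of all genes tested. The exceptions, by limma, were Marco (0.63 ± 0.32, adjusted p = 0.19) and Adgre1 (0.62 ± 0.33, adjusted p = 0.22). The Kupffer cell lectin Clec4f had 101, 177 and 178 TPM in ethanol females and 174, 138, 113 and 146 TPM in ethanol males, against 80.5, 126, 130 and 93.9 TPM in control females and 75.6, 43.01, 81.3 and 48.2 TPM in control males. Ethanol males lay above all control males, ethanol females overlapped control females, and control males were the lowest group. The log2 difference of Clec4f was 0.85 ± 0.21 (limma, adjusted p = 0.0036), or 1.81-fold. The complement receptor Vsig4 had a lowest, median and highest value of 39.5, 54.1 and 71.5 TPM in the 7 ethanol libraries, against 15.0, 31.2 and 42.1 TPM in the 8 control libraries. Of the 7 ethanol libraries 6 lay above every control, and the difference was 0.93 ± 0.22 (limma, adjusted p = 0.0033).

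The C1q genes had the smallest p-values of the markers at this stage. C1qa had 33.8, 46.8 and 61.4 TPM (lowest, median, highest) in the 7 ethanol libraries, against 12.8, 28.1 and 35.8 TPM in the 8 control libraries. For C1qb these values were 45.1, 65.6 and 75.4 TPM in ethanol libraries, against 19.0, 36.8 and 57.8 TPM in control libraries. For C1qc they were 21.1, 30.6 and 39.1 TPM in ethanol libraries, against 8.33, 18.04 and 24.1 TPM in control libraries. In each, 5 or 6 of the 7 ethanol libraries lay above every control. The log2 differences were 0.85, 0.85 and 0.87 with an SE of 0.18 each (limma, adjusted p = 0.001, 0.0012 and 0.0009). Cd68 differed by 0.77 ± 0.22 (limma, adjusted p = 0.014), Cd5l by 0.72 ± 0.25 (limma, adjusted p = 0.037) and Timd4 by 0.63 ± 0.20 (limma, adjusted p = 0.028).

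The median of all genes was itself 0.13 higher in ethanol-labelled livers at early resolution. After median-of-ratios scaling 6 of 10 markers were called, against 7.62% of all genes called higher with that scaling. Cd5l (0.54, limma, adjusted p = 0.074) and Timd4 (0.47, limma, adjusted p = 0.062) were the pair lost, and the median of the markers was 0.63, against -0.03 for all genes. These calls also ended when single early-resolution libraries were left out. That held for both genes with control female 1, ethanol female 2 or 3, control male 2 or 4, or ethanol male 1, and for Cd5l also with control female 4 or ethanol male 4, with limma adjusted p of up to 0.10.

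**Figure D2:**
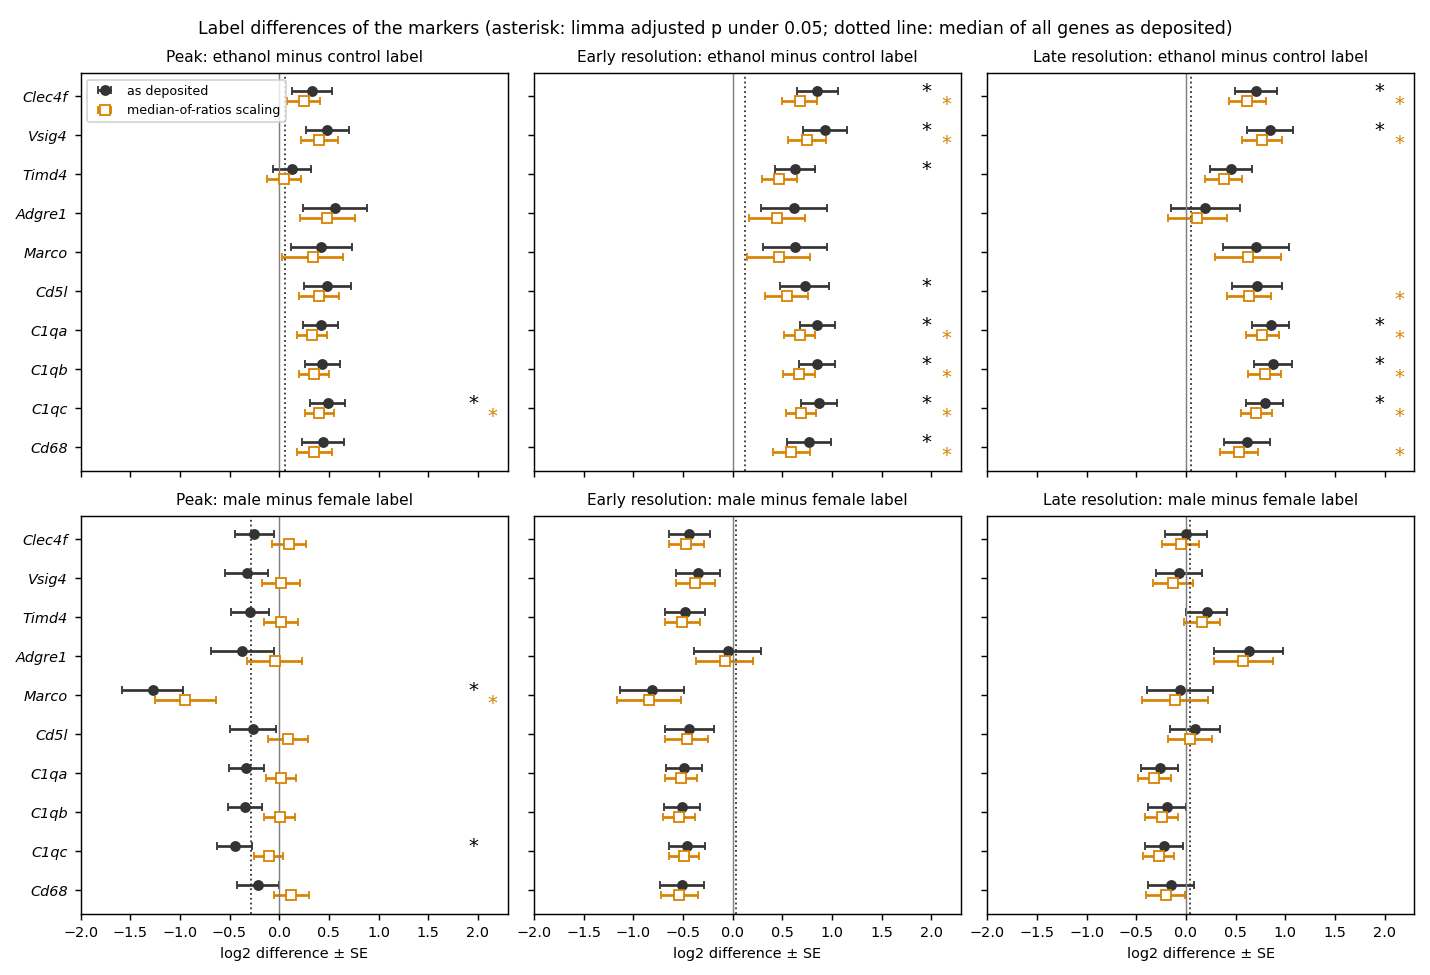
Log2 difference of each marker with its SE (horizontal axis), for ethanol minus control labels (top) and male minus female labels (bottom) at peak, early and late resolution; circles are values as deposited, squares after median-of-ratios scaling, asterisks limma adjusted p under 0.05, and the dotted line the median of all genes. All 10 circles lie right of 0 in the 3 top panels, and 8 carry an asterisk at early resolution.

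Within the sex labels at early resolution, the median marker difference was 1.17 in males and 0.46 in females as deposited, and 0.95 in males and 0.33 in females after median-of-ratios scaling. In male-labelled libraries 8 of 10 markers, all but Marco and Adgre1, had every ethanol library above every control library, against 15.6% of all genes, and limma called those 8, against 7.04% of all genes called higher. Cd68 had 31.7, 21.1, 20.2 and 25.2 TPM in ethanol males, against 11.5, 8.31, 16.7 and 6.07 TPM in control males, a log2 difference of 1.24 ± 0.30 (limma, adjusted p = 0.0065). Timd4, on long-established Kupffer cells, had 6.66, 4.34, 3.89 and 4.73 TPM in ethanol males, against 2.96, 1.09, 2.65 and 1.68 TPM in control males, a difference of 1.10 ± 0.27 (limma, adjusted p = 0.0078). Control male 2 was the lowest of all 45 libraries for 8 markers, and without it 5 of 10 were called in males. No share of all genes is given for that fit. In female-labelled libraries C1qa alone was separated (39.8, 61.4 and 52.1 TPM in ethanol females, against 35.8, 35.0, 35.7 and 30.1 TPM in control females), where 7.38% of all genes were. Limma called 0 of 10 there (2 at an unadjusted p under 0.05, 0 after median-of-ratios scaling), against 2.45% of all genes called higher as deposited and 1.97% after scaling. The difference between the male-labelled and female-labelled diet effects was positive for all 10 markers, from 0.37 ± 0.64 for Marco to 0.95 ± 0.40 for Timd4, yet limma called 0 of 10 (2 at an unadjusted p under 0.05, 0 after median-of-ratios scaling), where 0.00889% of all genes were called as deposited and 0% after scaling.

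At late resolution, after 2 wk on the control diet, 5 of 10 markers were called higher in ethanol-labelled than in control-labelled livers, against 8.82% of all genes tested. They were the C1q genes, Vsig4 and Clec4f. C1qb had 79.6, 62.9 and 51.2 TPM in ethanol females and 63.2, 48.7 and 74.2 TPM in ethanol males, against 84.7, 36.1, 24.0 and 27.6 TPM in control females and 36.3, 24.5, 29.4 and 31.5 TPM in control males. Control female 1, with 84.7 TPM, was above every other library, and each of the other 7 controls was below each of the 6 ethanol libraries. The log2 differences were 0.88 ± 0.19 for C1qb, 0.85 ± 0.19 for C1qa and 0.79 ± 0.19 for C1qc (limma, adjusted p = 0.0016, 0.0019 and 0.0042). Vsig4 differed by 0.85 ± 0.23 (limma, adjusted p = 0.012) and Clec4f by 0.70 ± 0.21 (limma, adjusted p = 0.025). The call for Clec4f was lost without control female 3, control male 2 or ethanol male 1 or 3 (limma, adjusted p of up to 0.076). Of the rest, Cd5l (0.72 ± 0.25, adjusted p = 0.057) and Cd68 (0.61 ± 0.23, adjusted p = 0.069) passed by limma after median-of-ratios scaling, which called 7 of 10, against 8.56% of all genes called higher with that scaling. Marco (0.71 ± 0.33, adjusted p = 0.15), Timd4 (0.45 ± 0.21, adjusted p = 0.14) and Adgre1 (0.19 ± 0.35, adjusted p = 0.74) passed limma under neither scaling.

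The library labelled late control female 1 decided how many markers were called at late resolution. It exceeded the mean of the other 3 late control females 2.57-fold for Adgre1 to 3.13-fold for Cd5l. Its Cd5l level was 189 TPM, against 60.5 ± 19.1 TPM in those 3, and its Cd68 level was 44.4 TPM, against 15.2 ± 5.01 TPM. For Marco it ranked 7 and for Adgre1 4 of 45. Without it 9 of 10 markers were called, all but Adgre1 (0.37), against 14.3% of all genes called higher, with log2 differences of 1.07 for C1qb, 1.04 for C1qa and Vsig4, 0.98 for C1qc, 0.93 for Cd5l and 0.89 for Clec4f. Within females limma called 6 markers without it, against 7.02% of all genes called higher, and 0 with it (4 at an unadjusted p under 0.05, 0 after median-of-ratios scaling, 1.41% of all genes called higher under either scaling).

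In male-labelled libraries at late resolution 7 of 10 markers were separated, all but Marco, Timd4 and Adgre1, against 13.5% of all genes. Limma called the C1q genes there, 3 of 10, against 3.66% of all genes called higher, and 6 after median-of-ratios scaling, against 5.65%. That count was 5 without late control female 1, against 4.22% of all genes called higher, 1 without control male 3 or 4, and 0 without control male 2 or ethanol male 1 or 3. For the fits without a male library no share of all genes is given. Adgre1 was 12.7, 8.96 and 16.9 TPM in ethanol males and 5.50, 4.84 and 12.4 TPM in ethanol females, against 9.60, 8.47, 9.91 and 10.4 TPM in control males and 14.9, 8.39, 2.48 and 6.52 TPM in control females. Its groups overlapped in both sex labels, unlike those of the C1q genes in males. The difference between the diet effects of the sex labels was called for no marker by limma (0 of 10, 0 at an unadjusted p under 0.05, 0 after median-of-ratios scaling), where 0.0445% of all genes were called as deposited and 0.0711% after scaling.

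The diet difference was larger at early resolution than at peak for all 10 markers as deposited, by 0.06 ± 0.46 for Adgre1 to 0.52 ± 0.29 for Clec4f, and Adgre1 turned to -0.04 after median-of-ratios scaling. None of these changes passed (limma, 0 of 10, 0 at an unadjusted p under 0.05, 0 after median-of-ratios scaling), where 0% of all genes were called as deposited and 0.178% after scaling. None passed from peak to late resolution (0, 0 and 0), where 3.98% and 12% were. Without late control female 1 the change from peak to late resolution still gave 0 limma calls. There 4 markers had an unadjusted p under 0.05, and the median change was 0.50, against 0.32 with all libraries. The higher count at early resolution than at peak is therefore not shown to be a change in the difference between the diet labels. Within ethanol-labelled livers, early resolution against peak gave 1 call of 10, against 21.6% of all genes called higher, namely C1qa (0.49 ± 0.18, limma, adjusted p = 0.041). Late resolution against peak gave 2, against 17.5%, namely Vsig4 (0.66 ± 0.23, limma, adjusted p = 0.036) and C1qa (0.51 ± 0.19, limma, adjusted p = 0.047), and 5 without late control female 1, against 18.4%. The median of all genes was also higher, by 0.16 and 0.14, in these stages, and after median-of-ratios scaling limma called 0 of the 10 in either (6 and 7 at an unadjusted p under 0.05 as deposited), where 12% and 12.4% of all genes were called higher. Vsig4 had a median of 58.5 TPM in late-resolution ethanol livers, against 40.1 TPM in peak ethanol livers. Within control-labelled livers no stage change was called by limma (early against peak 0 of 10 with 1 at an unadjusted p under 0.05, late against peak 0 with 1, and late against early 0 with 0, and 0 of 10 in either late comparison without late control female 1), with 0.347%, 0.605% and 0% of all genes called higher.

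Of the 10 markers, Marco had the largest sex-label difference at peak. The scavenger receptor had 2.79, 6.82, 5.73 and 5.58 TPM in ethanol males, against 27.0, 22.0, 15.3 and 17.1 TPM in ethanol females. In controls it had 7.22, 12.2, 4.21 and 2.87 TPM in males, against 10.05, 13.8, 10.2 and 5.45 TPM in females. Every ethanol male lay below every ethanol female, as for 39.7% of all genes tested, and the control groups overlapped. Averaged over the diet labels Marco was lower in male-labelled than in female-labelled livers by 1.27 ± 0.31 on the log2 scale (limma, adjusted p = 0.0013). The median of all genes was also 0.29 lower in males, and 46.7% of them were called lower, and 2 of 10 markers. After median-of-ratios scaling the difference of Marco was -0.95 ± 0.31 (limma, adjusted p = 0.018), where 15.4% of all genes were called lower. Within ethanol livers its difference was -1.89 ± 0.43 (limma, adjusted p = 0.0011, and 0.012 after that scaling), the only one of the 10 called there, against 45.2% of all genes called lower as deposited and 15.8% after scaling. That count was 2 without ethanol male 2 and 3 without late control female 1, with no share of all genes given for these fits. Within controls it was -0.66 ± 0.43 (limma, adjusted p = 0.39), and the difference between these 2 effects, -1.23 ± 0.61, was not called (limma, adjusted p = 0.38). The other call of the pair at peak, C1qc (-0.45 ± 0.17, limma, adjusted p = 0.032), moved to -0.10 (adjusted p = 0.61) after scaling. It was lost as deposited without control female 2 or 3, ethanol female 1 or 2, control male 3 or ethanol male 1 (limma, adjusted p of up to 0.09), and 4 markers were called lower without late control female 1, against 47.5% of all genes. By transcripts, the ethanol-labelled males and females of this comparison both read as female.

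At early resolution all 10 markers were lower on average in male-labelled than in female-labelled livers, by a median of -0.47 against 0.03 for all genes. Limma called 0 of 10 (7 at an unadjusted p under 0.05, 0 after median-of-ratios scaling), with 0.222% of all genes called lower as deposited and 0.863% after scaling. In controls C1qa, C1qb, C1qc and Timd4 had every male below every female, 4 of 10, against 3.78% of all genes. C1qb had 34.1, 19.0, 33.1 and 19.3 TPM in control males, against 42.7, 49.7, 57.8 and 39.4 TPM in control females, a log2 difference of -0.87 ± 0.25 (limma, adjusted p = 0.14). Limma called 0 of 10 in these controls (9 at an unadjusted p under 0.05), against 0.0711% of all genes called lower. It called 1 without late control female 1, for which fit no share of all genes is given. After median-of-ratios scaling it called C1qb and Timd4 (adjusted p = 0.046 and 0.044), against 0.534%. By transcripts all 8 control libraries of that stage read as male. At late resolution the sex-label differences ran from -0.26 ± 0.19 for C1qa to 0.63 ± 0.35 for Adgre1 (-0.08 to 0.81 without late control female 1). Limma called 0 of 10 (0 at an unadjusted p under 0.05, 0 after scaling), against 2.46% of all genes called higher and 0.783% lower as deposited, and 6.54% and 3.01% after scaling. Without late control female 1 it also called 0, with 2 at an unadjusted p under 0.05.

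Because the sex transcripts went against the labels, the diet comparison was repeated with the 23 libraries in which they matched. It then set 10 ethanol-labelled females against 12 control-labelled males over the 3 stages, and the remaining library, late control female 1, entered no comparison. As deposited limma called 8, 8 and 6 of 10 markers higher at peak, early and late resolution, against 28.3%, 6.95% and 11.8% of all genes. After median-of-ratios scaling these counts were 2, 8 and 7, against 8.77%, 6.67% and 13.8%. At early resolution the largest of the called differences were 1.36 for C1qb and 1.35 for C1qa (limma, adjusted p = 0.00024 and 0.00081). At peak Marco had the largest, 1.70 (limma, adjusted p = 0.0069), and 1.28 (adjusted p = 0.048) after scaling. At late resolution Adgre1 was lower in ethanol-labelled livers, by -0.44 (limma, adjusted p = 0.46), the only marker whose direction turned. Between these ethanol-labelled females and control-labelled males, diet label, sex label and transcript sex all differ together and cannot be told apart.

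The markers varied together from library to library. Over the 45 libraries, the Pearson correlation of log2(TPM + 0.5) was 0.98 for C1qb with C1qa and with C1qc, and 0.95 for Clec4f with Vsig4 and with Cd5l. The median correlation with the other 9 markers was 0.88 to 0.91 for Clec4f, Vsig4, C1qa, C1qb, C1qc, Cd5l and Cd68. It was 0.80 for Timd4, 0.68 for Adgre1 and 0.58 for Marco, whose correlations ran from 0.47 to 0.74. On deviations from the group means the medians were 0.74 to 0.85 for those 7 genes and 0.55 for Marco. These are descriptions over libraries that share their stage, labels and total. Adgre1 correlated most with Cd5l (0.84), and with C1qa at 0.52. The C1q chains kept a nearly fixed ratio, with C1qb at 45.04 ± 1.69%, C1qa at 33.8 ± 1.67% and C1qc at 21.2 ± 1.00% of their summed TPM (SD, n = 45 libraries). Genes outside the list with a mean of at least 5 TPM (6185 genes) were ranked by their correlation with the mean standardised level of the markers over the 45 libraries, and Folr2 (0.96), Csf1r (0.95), Cfp (0.93), Tyrobp (0.93) and Treml4 (0.93) came first.

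**Figure D3:**
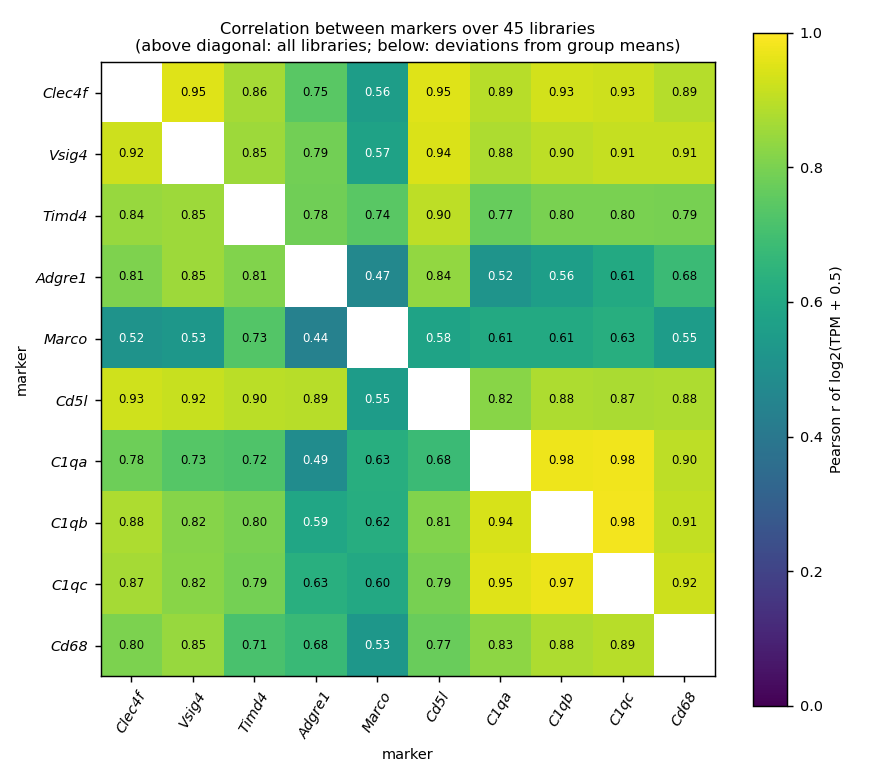
Pearson correlation of log2(TPM + 0.5) between markers (both axes), over all 45 libraries above the diagonal and over deviations from the group means below it. The C1q genes form the tightest block, up to 0.98. Marco has the lowest correlations, in the darker cells, down to 0.47 above the diagonal and 0.44 below it.

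Other macrophage genes were read from lists of cell types and pathways, beside the same all-gene backgrounds, with 9.81%, 2.46% and 3.98% of all genes called lower at peak, early and late resolution. Of 13 other Kupffer cell genes tested, limma called 6, 8 and 4 higher in ethanol-labelled livers at peak, early and late resolution, and none lower. At peak they included Hmox1, the haem-degrading oxygenase (1.28 ± 0.17, limma, adjusted p = 2.7e-07), and Il18bp, which binds interleukin 18 (0.75 ± 0.14, adjusted p = 0.00011), as well as Cdh5, which is also an endothelial marker (1.04 ± 0.16, adjusted p = 8.6e-06). Of 9 macrophage transcription factors, 3, 6 and 4 were called higher, and 1, 0 and 1 lower. Id1 (1.80 ± 0.19 at peak) and Id3 (1.44 ± 0.25 at peak), inhibitors of helix-loop-helix factors that are also made by other liver cells, were called by limma at each stage, but Id3 at early resolution (0.84 ± 0.26, adjusted p = 0.02) was not after median-of-ratios scaling (0.67 ± 0.29, adjusted p = 0.12). Irf8, a factor of monocyte and macrophage development, was higher in ethanol-labelled livers at each stage as well (0.46 ± 0.14, 0.71 ± 0.14 and 0.49 ± 0.15 by limma). Of 15 pan-macrophage and myeloid genes, 3, 10 and 6 were called higher and none lower. Among them the Fc receptor genes Fcer1g and Fcgr1 were higher by 0.87 ± 0.17 and 0.77 ± 0.17 at early resolution (limma, adjusted p = 0.00044 and 0.0012). After median-of-ratios scaling the counts called higher at the 3 stages were 5, 6 and 5 for the other Kupffer cell genes, 3, 4 and 4 for the transcription factors and 3, 7 and 8 for the pan-macrophage and myeloid genes. Without late control female 1 the counts at late resolution were 9, 5 and 9.

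Growth factors for macrophages and genes for the uptake of dying cells were also read. In the colony-stimulating factor list 2, 4 and 3 of 5 genes were called higher. Il34, a ligand of the receptor encoded by Csf1r, was higher in ethanol-labelled livers at all 3 stages (0.73 ± 0.18, 0.56 ± 0.19 and 0.62 ± 0.19, limma), but its call at early resolution (adjusted p = 0.034) was lost after median-of-ratios scaling (0.41 ± 0.18, adjusted p = 0.1). Csf1, the other ligand of that receptor, was higher at early (0.66 ± 0.20) and late resolution (0.81 ± 0.20, limma, adjusted p = 0.017 and 0.0067) and measured 0.37 ± 0.19 at peak (adjusted p = 0.14). Of 9 uptake receptors and bridging proteins 7, 6 and 1 were called higher, with Gas6, the bridge to the TAM receptors, at 2.14 ± 0.25 at peak. In the classical complement list, C1ra and C1s1, the proteases that pair with C1q and are made mainly by hepatocytes, were lower by 0.33 ± 0.10 and 0.31 ± 0.11 at peak (limma). Of 7 genes of recruited monocytes 2, 2 and 1 were called higher, with Plac8 among them at each stage (1.00 ± 0.19 at peak). The monocyte markers Ly6c2, Ccr2 and Chil3 stayed at 2.26, 0.596 and 1.29 TPM or less in every library. After median-of-ratios scaling the counts called higher were 2, 2 and 3 in the colony-stimulating factor list, 6, 4 and 3 for the uptake genes, with 1 lower at late resolution, and 2, 1 and 1 for the recruited monocyte genes. Without late control female 1 these lists had 4, 4 and 4 genes called higher at late resolution.

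Markers of several other liver cells also differed between the diet labels. Of all genes, 17.3%, 14.3% and 8.82% were called higher at peak, early and late resolution as deposited, and 9.81%, 2.46% and 3.98% lower. The T and NK cell count higher at peak, 1 of 6, was no more than that share. The same held for the hepatocyte counts higher at peak and early resolution, 1 of 8 each. In whole-liver RNA, more cells of a type and more RNA per cell cannot be told apart. At peak 11 of 12 endothelial and 8 of 9 stellate cell markers were called higher in ethanol-labelled livers by limma, at early resolution 2 and 5, and at late resolution 0 and 2. The early counts were 0 and 3 after median-of-ratios scaling, and the late counts 2 and 2 without late control female 1. The summed stellate markers were 203 to 508, 303 to 455 and 269 to 352 TPM in ethanol livers at the 3 stages, against 84.2 to 308, 138 to 273 and 116 to 312 TPM in control livers. The summed endothelial markers were 124 to 429, 217 to 370 and 193 to 329 TPM in ethanol livers, against 79.2 to 317, 175 to 288 and 114 to 251 TPM in control livers. Of 6 T and NK cell genes tested 1, 4 and 4 were called higher and 1, 1 and 0 lower, and of 4 B cell genes 0, 2 and 4 were called higher. After median-of-ratios scaling the early counts called higher were 3 for the T and NK cell genes and 0 for the B cell genes, and without late control female 1 the late counts were 5 and 4. Summed T and NK cell markers were 4.80 to 10.8, 5.59 to 15.4 and 6.59 to 17.9 TPM in ethanol livers, against 3.79 to 5.43, 3.32 to 7.93 and 2.67 to 9.96 TPM in control livers. Summed B cell markers were 2.10 to 8.78, 4.21 to 11.8 and 5.44 to 41.6 TPM in ethanol livers, against 1.09 to 4.75, 1.32 to 10.02 and 1.55 to 6.33 TPM in control livers. Of 8 hepatocyte markers 1, 1 and 2 were called higher and 0, 0 and 2 lower, and after median-of-ratios scaling 1, 1 and 1 higher and 1, 0 and 3 lower. Without late control female 1 the late counts were 2 higher and 3 lower. In that fit 0 of 4 neutrophil, 1 of 3 dendritic cell and 0 of 3 cholangiocyte markers were called higher, and none lower. Their median differences at late resolution were -0.60, 0.26 and 0.13. The neutrophil value does not stand for the earlier stages. In that fit the neutrophil diet difference changed to late resolution by a median of -0.82 from peak and -1.59 from early resolution. Limma called 0 of 4 in either change, with 1 and 4 at an unadjusted p under 0.05, and no share of all genes is given for these changes. Of 8 lipid-associated and scar-associated macrophage genes 2 were called higher at late resolution without late control female 1, against 14.3% of all genes. At peak the 3 of them with the smallest p were called higher as deposited. They were Cd63 (1.12 ± 0.24), Itgax (0.70 ± 0.19) and Fabp5 (0.97 ± 0.34) (limma, adjusted p = 0.00064, 0.0049 and 0.031). Fabp5 was not called at peak after median-of-ratios scaling (0.89 ± 0.36, limma, adjusted p = 0.054). The sum of the 10 macrophage markers was 198 to 535, 392 to 627 and 415 to 672 TPM in ethanol livers, against 211 to 411, 144 to 461 and 185 to 728 TPM in control livers. Of the defining markers of these cell types only Ly6g, of neutrophils, was listed at 0 in any library (16 of 45). The part of these other cells in the macrophage marker differences was not tested.

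**Figure D4:**
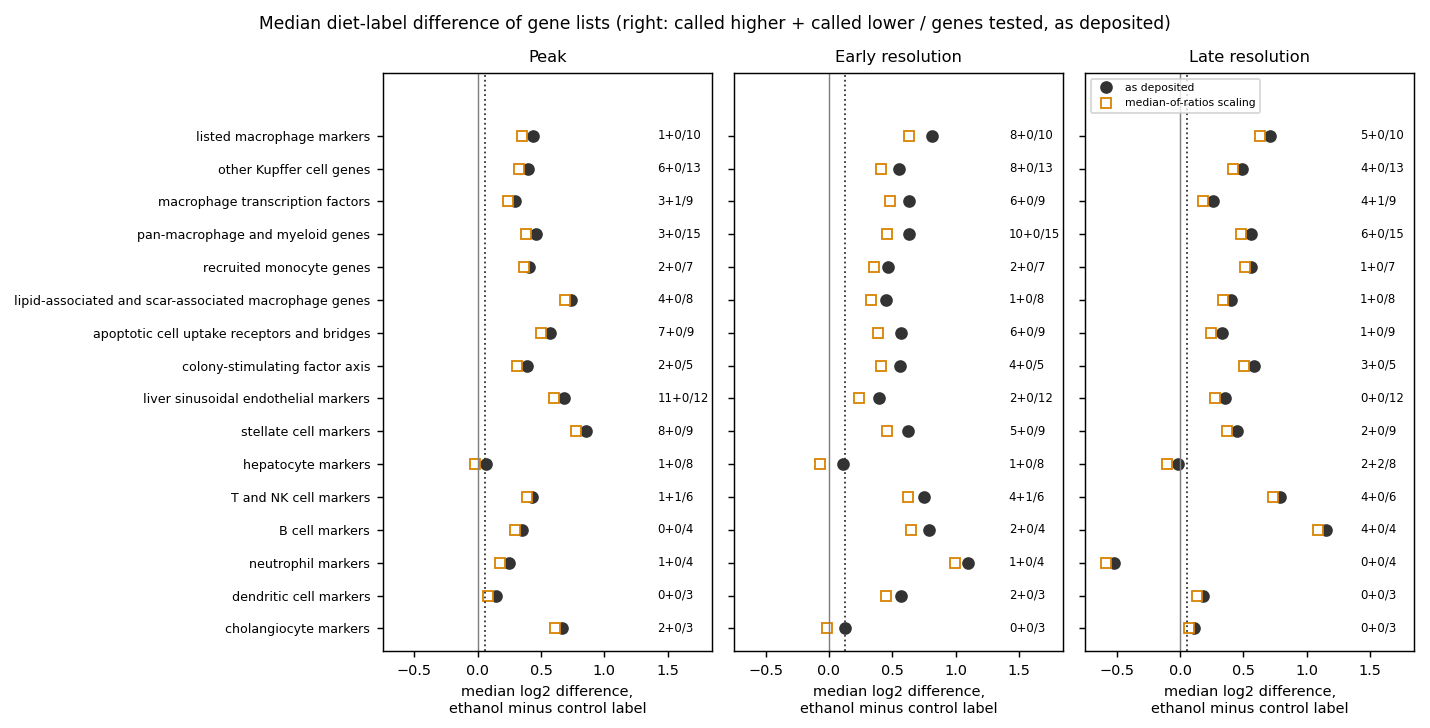
Median log2 difference, ethanol minus control label, of each gene list (horizontal axis) at peak, early and late resolution, as deposited (circles) and after median-of-ratios scaling (squares), with genes called higher and lower over genes tested at the right and the median of all genes as a dotted line. The macrophage markers lie at 0.44, 0.81 and 0.71, against 0.05, 0.13 and 0.05 for all genes.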

How the data were processed

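Liver RNA was measured by sequencing in 45 libraries. Per the labels' protocols RNA came from a spin-column kit and a stranded mRNA library kit, and per the submitters' processing notes the build was mm10. For aligner, counter and annotation, names were not given in the sources used here. Values deposited by the authors are TPM: libraries sum to 999999 to 1000001, and the lowest value of a gene falls with exon length (Spearman rho = -0.31 across 7548 genes). Sequencing depth is therefore unknown, and no counting interval is given. Of 24972 entries, 26 with names turned into dates (0.044% of TPM) were left out.

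Values were taken as log2(TPM + 0.5) in the 11244 genes that averaged 0.5 TPM or more (99.88% of TPM). Differences therefore understate changes of low genes such as Timd4. They were tested with limma 3.58.1 in R 4.3.3, with a variance trend, a mean for each of 12 groups (33 residual degrees of freedom) and Benjamini-Hochberg adjustment over all genes. Genes were called at an adjusted p under 0.05. Diet differences are ethanol minus control, averaged over sex labels, and sex differences male minus female, averaged over diet labels. The scripts were tested on simulated data. Of 21 same-numbered pairs 7 had deviations from the group means that correlated above 0.1, so the numbers were not taken as pairs. Alternatives were other pseudocounts, filters, variance settings and scalings (median of ratios, quantile), array weights, the libraries of a stage alone, a replicate block, each library left out, and the libraries with matching sex transcripts. The last of these combined with median-of-ratios scaling, and the lists and backgrounds without late control female 1, were added after seeing the data.

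The members, gene lists and tests were chosen with earlier results of these data known. All 10 markers are named. From each other list the 3 genes with the smallest p for diet at peak could be named, and by likeness the 5 most correlated genes. Ly6c2, Ccr2, Chil3 and Ly6g are named as defining cell type markers. Promoters came from a RefSeq table and coordinates from GENCODE M21. Tables, sequences and plots were made with scipy 1.17.1, pandas 2.3.3, numpy 2.4.6 and matplotlib 3.10.9 under Python 3.11.15.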

Additional observations from a re-analysis of the deposited data

Results flagged for a closer look

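For each marker, the highest and the lowest library of each group of 4 were set against the other 3 by the gap to the nearest, as a share of the range of the group. Of 90 marker groups of 4 libraries 2 had a library that stood apart, both for C1qa in control-labelled females. Chance gives about 1 in 20 such groups. At early resolution control female 4 had 30.1 TPM of C1qa, below the others at 35.0 to 35.8 TPM. At late resolution control female 1 had 65.7 TPM of C1qa, above the others at 19.6 to 26.1 TPM. This is the library with the highest level of 8 of the 10 markers and with the Xist and Eif2s3y pattern of the ethanol-labelled livers. The cause of either was not tested.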

How the results depend on the processing

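As deposited, with all libraries, limma called 1, 8 and 5 of 10 markers higher in ethanol-labelled livers at peak, early and late resolution, and 2, 0 and 0 by sex label. At peak the diet count was 2 with quantile normalization, 3 with array weights, 3 with the libraries of the stage alone, 8 with only libraries whose sex transcripts match the label and 2 with those after median-of-ratios scaling. At late resolution it was 2 with the libraries of the stage alone. The sex-label count at peak was 1 with no filter on low values, 1 with median-of-ratios scaling, 1 with quantile normalization, 8 with array weights and 4 with the libraries of the stage alone, and at early resolution 5 with array weights, whose fit gave a convergence warning. By sex label in early-resolution controls, 0 as deposited, it was 2 with median-of-ratios scaling, 2 with quantile normalization and 6 with array weights. For diet in late-resolution males, 3 as deposited, it was 6, 5 and 7 with these, and 0 with the libraries of the stage alone. By sex label in peak ethanol livers, 1 as deposited, it was 3 with array weights and 3 with the stage alone, and array weights gave 1 in peak controls and 1 in late-resolution ethanol livers, both 0 as deposited. Leaving out each library in turn gave 0 to 4, 6 to 8 and 4 to 9 diet calls at peak, early and late resolution and 1 to 4 sex-label calls at peak, and 0 by sex label at early and late resolution, for the difference between the diet effects of the sex labels at each stage, and for how the diet effect changed between peak and late resolution. The other pseudocounts (0.1 and 2), a minimum mean of 5 TPM and the other variance settings kept each count within 1.5 times. By sex label at peak, 46.7% of all genes were already called lower as deposited. Shares of all genes are given above for median-of-ratios scaling, the matching libraries and some fits without late control female 1. For the other fits here, and for the replicate block, no such share is given, so their counts have no background to be read against.

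The replicate numbers were not taken as pairs: over 21 pairs the correlation of deviations from the group means ran from -0.37 to 0.25, with a median of -0.05, and 6 libraries correlated best with their own number. At peak all 4 female pairs lay above 0.1, at 0.109 to 0.222, each best with its own number, and the block left 0 of 10 called within those females. With the replicate block the diet count at peak was 3, with C1qa and C1qb added, and no other count changed by more than 1.5 times.

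Directions turned for these markers. By sex label at peak, median-of-ratios scaling gave 0.10 for Clec4f, 0.0176 for Vsig4, 0.015 for C1qa, 0.0031 for C1qb, 0.087 for Cd5l, 0.0163 for Timd4 and 0.12 for Cd68, all negative as deposited, and quantile normalization gave 0.0493 for Timd4 and 0.0557 for Cd68. By sex label at late resolution Clec4f was -0.0536 with median-of-ratios scaling and -0.0882 with array weights, and Marco 0.11 with array weights. Adgre1 gave -0.0204 for diet at late resolution and 0.0186 for sex label at early resolution with array weights, and -0.44 and, after scaling, -0.46 for diet at late resolution in the libraries with matching transcripts. With single libraries left out, the sex-label difference at late resolution ran from -0.14 to 0.19 for Clec4f, -0.23 to 0.12 for Vsig4, -0.30 to 0.0041 for C1qb, -0.0758 to 0.30 for Cd5l, -0.27 to 0.18 for Marco and -0.27 to 0.0441 for Cd68. Adgre1 ran from -0.26 to 0.20 by sex label at early resolution and from -0.0226 to 0.37 by diet at late resolution. The causes were not tested, and depth is unknown.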
